A study of Homo sapiens with 12 samples.

Results

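RNA-seq of WM-266-4 human melanoma cells that expressed an ADAM-resistant TYRO3 (ΔADAM) was compared with that of cells that received a GFP plasmid. The members were the 3 ΔADAM and the 3 GFP libraries, chosen by their labels and paired by the number of the experiment, and make up 6 of the 12 libraries of the series. The other 6 libraries came from wild-type TYRO3 (WT) and from a gamma-secretase-resistant TYRO3 (ΔGS, I449A), with 3 libraries each. All 4 groups carried a stable lentiviral knock-down of TYRO3 and were kept in medium with fetal calf serum and puromycin, transfected with a pEZY-myc-his plasmid using jetPRIME and serum-starved overnight before RNA extraction. The ΔADAM plasmid encoded TYRO3 with the changes P408A, L409P and G419P. The study calls the control of its RNA-seq a vector control. A figure legend for functional assays and expression heatmaps describes the control as an empty plasmid. According to the labels, which were followed here, the control plasmid encoded GFP. Effects of gaining TYRO3 and of losing GFP therefore cannot be told apart in this comparison. The labels name separate experiments but not how the cultures were kept apart, so that p-values measure the spread between these libraries.

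TYRO3 is one of the TAM receptor tyrosine kinases, together with AXL and MERTK, and the secreted proteins GAS6 and PROS1 are their ligands. Like many single-pass receptors it is processed by regulated intramembrane proteolysis, in which an ADAM protease first sheds the ectodomain and gamma-secretase then cuts the remaining stub within the membrane and releases the intracellular domain. As far as a receptor resists the ADAM protease, it keeps its ectodomain and does not become a substrate for the second step. In melanoma, TAM receptors are studied as growth and survival receptors, and melanoma cells are often described along an axis from a melanocytic state driven by MITF to an invasive state with high AXL.

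The stretch of the TYRO3 coding sequence that holds the changed codons is shown because the ΔADAM construct differs from WT TYRO3 there. It spans codons 403 to 424 of TYRO3-201 in GENCODE 29 (GRCh38, chr15:41568977-41570046, plus strand), a transcript that encodes 890 residues, and joins the end of exon 9 to the start of exon 10 of 19. Capitals mark codons 408, 409, 418 and 419.
TYRO3 codons 403 to 424: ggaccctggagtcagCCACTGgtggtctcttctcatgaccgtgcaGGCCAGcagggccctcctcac
Codons 408 and 409 encode the residues that the label names. Codon 419 of this transcript does not encode the labelled glycine, and the nearest codon that does is 418. The sequence is that of the reference, and the estimated counts do not show the changed bases of the plasmid.

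The total of the estimated counts lay between 4008293 and 38184838 in the GFP libraries and between 22808876 and 34412887 in the ΔADAM libraries, and the GFP library of experiment 1 was the shallowest of the series. Counts were summed over 35579 genes, and the 15098 genes with enough counts were tested. Levels are given as CPM, the counts scaled to library size. Gene-wise differences are log2 fold changes of ΔADAM over GFP from edgeR, with a term for the experiment. Calls required a fold change over 1.5 and a Benjamini-Hochberg adjusted p-value of at most 0.05. Genes that mark melanoma cells were present, with 11 of 11 markers tested and a summed level of 2325 to 2723 TPM, which also accounts for transcript length, in GFP and 1883 to 2456 TPM in ΔADAM libraries.

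TYRO3 (ENSG00000092445, chr15:41557675-41583586) was at 53.1, 47.3 and 56.6 CPM in the GFP libraries of experiments 1, 2 and 3. It was at 3284, 1215 and 1181 CPM in the matching ΔADAM libraries. The groups were far apart, with the ΔADAM library of experiment 1 above the others. The log2 fold change was 4.92 (SE 0.27, adjusted p = 1.45e-05 in the quasi-likelihood test of edgeR). TYRO3-202 took between 91.3% and 93.1% of the TYRO3 counts in the ΔADAM libraries and between 52.2% and 69.4% in the GFP libraries. Counts from the plasmid and from the cells' own gene were not separated.

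Of the 15098 genes tested, 784 (5.19%) were called, 475 higher (3.15%) and 309 lower (2.05%) with ΔADAM TYRO3. These shares are the background for the counts of every gene list below. The median size of the called changes was 0.91 on the log2 scale, and 47 genes rose and 8 fell by over 4-fold. In 783 of the 784 genes the 3 experiments had the same direction (51.8% of all genes tested), and in 649 the CPM values of the groups did not overlap (25.7%). Both counts follow in large part from the call, which was made on these same libraries, and are no separate support for it. The changes were largest in experiment 1, with a median log2 ratio of 1.29 for genes called higher, against 0.74 and 1.05 in experiments 2 and 3. For genes called lower the medians were -1.12, -0.52 and -0.83. The calls rest on the pairing by experiment: without the term for the experiment 5 genes (0.0331%) were called higher and 0 lower in edgeR, and TYRO3 was the one among them that belongs to a list described here. With a term for experiment 1 alone, 96 were higher and 75 lower (1.13% in all). Without the GFP library of experiment 1, 215 genes were called higher and 73 lower, and limma on log2 TPM called 378 higher and 121 lower, a larger share of higher genes.

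**Figure D1:**
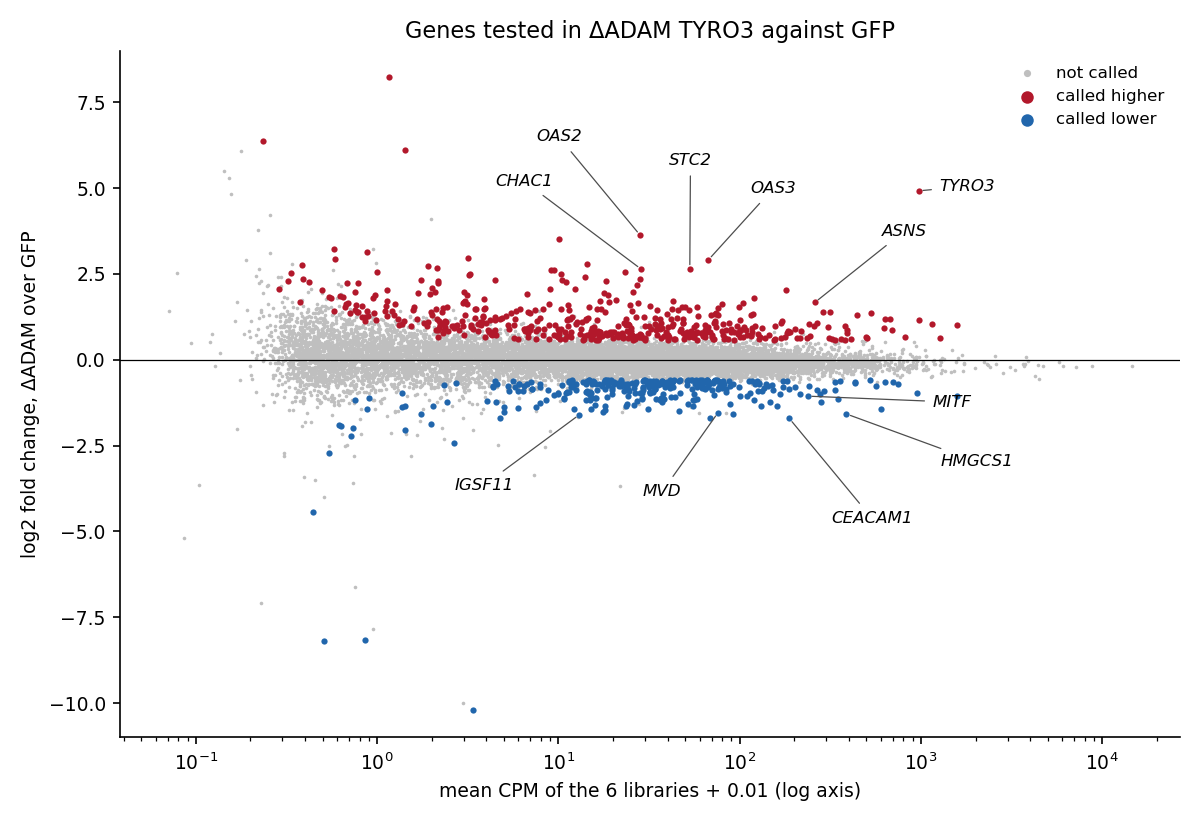
Each point is 1 of the 15098 genes, with the mean CPM of the 6 libraries on a log axis and the log2 fold change of ΔADAM over GFP on the vertical axis. The 475 genes called higher are red and the 309 called lower blue, and TYRO3 stands out at a log2 fold change of 4.92 among the well-expressed genes.

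Called genes were ranked by size if they averaged at least 5 CPM over the 6 libraries. Apart from TYRO3, those that rose most were antiviral genes, joined by a pair of genes of the amino acid stress response. Some passed this floor through the ΔADAM libraries, as did OAS1 with 0, 2.94 and 0.859 CPM in GFP. OAS2, which makes the second messenger of the RNase L pathway, was at 0.526, 7.68 and 1.87 CPM in the GFP and 37.1, 110 and 12 CPM in the ΔADAM libraries (log2 fold change 3.63, SE 0.26, adjusted p = 1.47e-04, edgeR). The groups did not overlap, and in both of them the library of experiment 2 was the highest. Its relatives OAS1 and OAS3 had log2 fold changes of 3.51 and 2.91, XAF1, an interferon-inducible antagonist of apoptosis inhibitors, 2.78, and RSAD2, the antiviral protein viperin, 2.60. IFI44L and CXCL10 followed with 2.56 and 2.60. STC2, a secreted glycoprotein of the stanniocalcin family, was at 8.42, 12.2 and 13.4 CPM in GFP and 107, 38.2 and 139 CPM in ΔADAM libraries (log2 fold change 2.65, SE 0.41, adjusted p = 0.00592, edgeR). CHAC1, an enzyme that degrades glutathione, had 3.68, 5.42 and 8.34 against 28.1, 18.9 and 107 CPM (2.64, SE 0.54, adjusted p = 0.0161, edgeR). For both genes all ΔADAM libraries lay above all GFP libraries and that of experiment 2 was the lowest of the 3.

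The largest decreases among genes that passed the same floor were smaller than the largest increases, some of which began at low GFP levels. CEACAM1, a cell adhesion molecule, was at 237, 337 and 267 CPM in GFP and at 51.1, 167 and 67.6 CPM in ΔADAM libraries (log2 fold change -1.71, SE 0.30, adjusted p = 0.00857, edgeR). The zinc finger gene ZNF114 (-1.70) and the adhesion gene IGSF11 (-1.60) came next. CAPN3, a calpain protease (-1.58), the sterol enzymes HMGCS1 (-1.58) and MVD (-1.54) and the tubulin gene TUBB4A (-1.51) followed. SOX5, a transcription factor of the neural crest lineage, had a log2 fold change of -1.5, ST8SIA1, the synthase of ganglioside GD3, -1.46 and P2RX7, an ATP-gated channel, -1.44. In each of these 10 genes the GFP libraries lay above the ΔADAM libraries without overlap, and the ΔADAM level was highest in experiment 2 for 9 of them and in experiment 3 for CAPN3.

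The other TAM receptors moved in opposite directions. AXL was at 86.5, 68.8 and 55.1 CPM in GFP and at 185, 97.9 and 101 CPM in ΔADAM libraries, so that the groups did not overlap (log2 fold change 0.82, SE 0.15, adjusted p = 0.0120, edgeR). MERTK fell from 19.5, 18.8 and 22 CPM to 6.87, 12.6 and 10.8 CPM (-0.98, SE 0.20, adjusted p = 0.0164, edgeR). TUB, the gene of a further TAM ligand, fell as well (-0.71, SE 0.20, adjusted p = 0.0498, edgeR), just inside the threshold. PROS1 stayed between 57.1 and 64.5 CPM in all 6 libraries (0.07, SE 0.08), GAS6 had a log2 fold change of 0.81 that was not called (SE 0.28, adjusted p = 0.0909, edgeR), and LGALS3 had -0.08 (SE 0.10). Of the 8 list members 7 passed the filter on low counts and TULP1, with 3 counts in the GFP and 8 in the ΔADAM libraries, did not. AXL, MERTK and TUB were not called when the first GFP library or the first or the third ΔADAM library was left out, nor was TUB without the third GFP library. With TYRO3 included, 2 members of the list were called higher and 2 lower in edgeR, against 3 and 2 in DESeq2. With the other scalings, in limma on log2 TPM and with the 6 libraries alone, 2 were called higher and 1 lower.

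**Figure D2:**
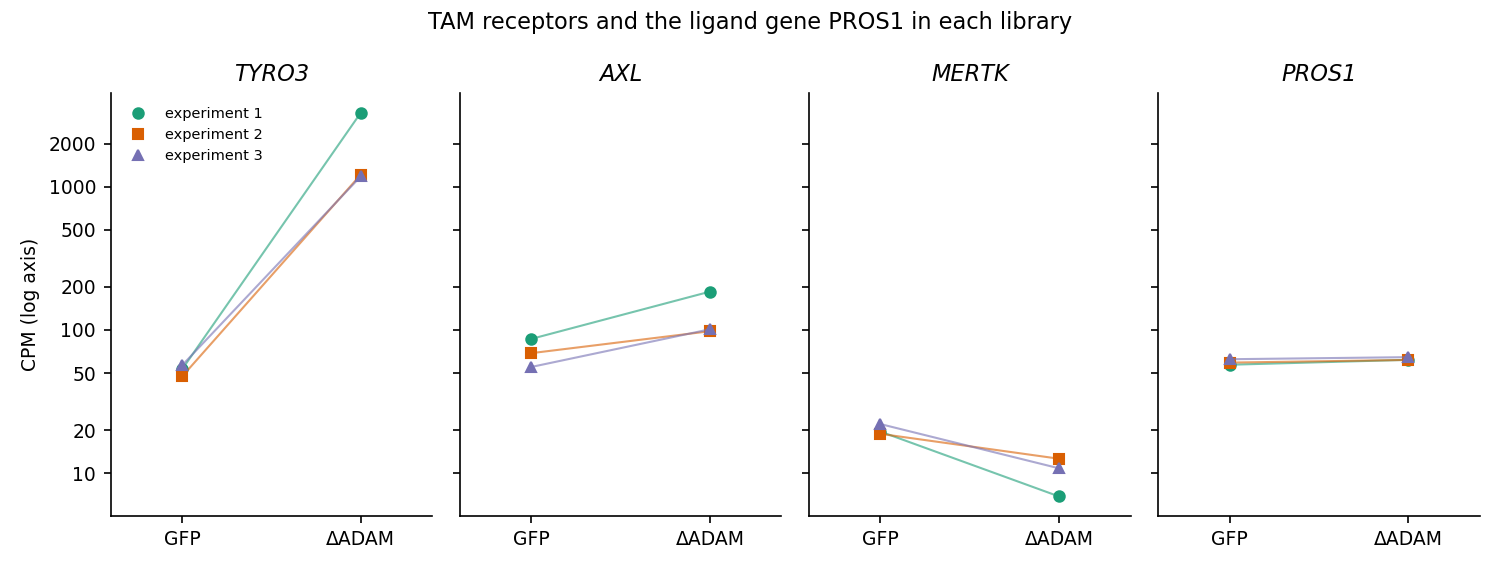
CPM on a log axis in the GFP and ΔADAM library of each experiment, with lines joining the libraries of 1 experiment. AXL lay higher and MERTK lower with ΔADAM TYRO3 in all 3 experiments, whereas PROS1 stayed between 57.1 and 64.5 CPM.

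None of the 13 tested members of the cleavage machinery was called in edgeR, DESeq2 or limma, against 5.19% of all genes in edgeR. An unadjusted p under 0.05 in edgeR was found for 3 of them, against 4136 of all 15098 genes tested. ADAM10, a main sheddase of single-pass receptors, had a log2 fold change of -0.10 (SE 0.10) and its relative ADAM17 one of 0.33 (SE 0.12, adjusted p = 0.102, edgeR). ADAM17 was at 108 to 119 CPM in GFP and 127 to 154 CPM in ΔADAM libraries. The gamma-secretase subunits PSEN2, NCSTN, APH1A, APH1B and PSENEN lay between -0.18 and 0.08. TIMP3, an inhibitor of ADAM proteases, passed the adjusted p but not the fold change (-0.36, SE 0.09, adjusted p = 0.0286, edgeR). ADAM12 had 16 and 10 counts in the groups and did not pass the filter.

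Interferon-stimulated antiviral genes formed the list with the most increases. Type I interferon signals through STAT2 and IRF9 to genes whose products detect viral RNA, degrade it or block its translation. Of 39 tested members 33 were called higher and 0 lower, with a median log2 fold change of 1.46 against -0.00 over all genes tested. The median log2 ratio was 1.79, 1.78 and 0.90 in the 3 experiments. IFIT1, which binds foreign RNA, was at 31.8, 69.4 and 37.8 CPM in GFP and at 99.5, 404 and 79.9 CPM in ΔADAM libraries (1.80, SE 0.22, adjusted p = 0.00209, edgeR). MX1, a GTPase that blocks influenza and other viruses, was at 15.3, 130 and 58.9 against 220, 529 and 127 CPM, so that its groups overlapped while each experiment had a higher ΔADAM library (2.03, SE 0.33, adjusted p = 0.00726, edgeR). The GFP and ΔADAM libraries did not overlap for 19 of the 39 genes, against 25.7% of all genes tested. The levels of these genes were highest in experiment 2 in both groups for OAS2, IFIT1 and MX1. USP18, which restrains the pathway, rose by a log2 fold change of 2.50, CMPK2 by 2.29, and the transcription factors STAT2 and IRF9 by 0.71 and 0.75. MX2 (0.20), HERC5 (0.35), HERC6 (0.54), IFI44 (0.65), TRIM22 (1.02) and IRF7 (1.12) were not called. The number called stayed between 28 and 35 when any of the 6 libraries was left out. It was 25 in experiments 2 and 3 alone (where 1.46% of all genes were called), and dropped to 1 with a term for experiment 1 alone. Where at least 10 counts were required in every library, 26 members were tested and 22 of them called higher, with a median of 1.12.

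Of the 19 tested interferon, receptor and sensor genes, 3 were called, all higher (15.8%, against 5.19% of all genes tested). TLR3, an endosomal sensor of double-stranded RNA, rose from 2.37, 3.67 and 2.22 CPM to 10.0, 13.9 and 8.17 CPM (1.91, SE 0.17, adjusted p = 5.10e-04, edgeR). EIF2AK2, the RNA-activated kinase PKR, rose by 0.89 (SE 0.15, adjusted p = 0.00774, edgeR). AIM2, a DNA sensor, passed the test at levels under 0.5 CPM in each library, and was not called when any 1 of the 6 libraries was left out. The receptor genes IFNAR1, IFNAR2 and IFNGR2 and the kinases JAK1, JAK2 and TYK2 had log2 fold changes between -0.10 and 0.14. IFNB1, the gene of interferon beta, was tested but not called (0.83, adjusted p = 0.456, edgeR), IFNL1 had 1 count in the GFP and 10 in the ΔADAM libraries, and IFNA1 and IFNG were at 0 counts in each of the 6 libraries, which allows up to 3 counts in each.

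The promoters of interferon-stimulated genes often hold the interferon-stimulated response element, which STAT2 and IRF9 bind with their partners. RefSeq promoters (GRCh38.p14, from 250 bases before to 50 after the gene's start) were searched on both strands for a short form of the element, GAAA followed by any 2 bases and GAAA again. It was found in 20 of the 30 list members with a promoter in the table, and in 18 of the 27 called ones, against 3.57% of 35116 promoters. Of the 16 MHC class I presentation genes with a promoter, 12 held it. A gene was counted when any of its promoters held the element, whereas the share over all promoters takes each promoter singly. Genes with several promoters had more chances, here and for the other elements below. The windows below show the short form of the interferon element in capitals for 3 of the called genes, in the direction of transcription. Matches for IFIT1 and TAP1 overlap or neighbour each other on the other strand.
IFIT1, chr10:89392482-89392541, plus strand: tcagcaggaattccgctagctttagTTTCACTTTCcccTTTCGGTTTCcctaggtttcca
CXCL10, chr4:76023684-76023743, minus strand: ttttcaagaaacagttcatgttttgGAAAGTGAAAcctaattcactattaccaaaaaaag
TAP1, chr6:32853804-32853863, minus strand: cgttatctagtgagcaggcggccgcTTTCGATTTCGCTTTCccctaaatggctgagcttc
A match is a description of the letters in this window, and binding was not measured.

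MHC class I molecules present peptides to cytotoxic T cells, and the peptides are cut by the immunoproteasome and carried into the endoplasmic reticulum by TAP1 and TAP2. Of 19 tested members 7 were called higher and 0 lower, with a median log2 fold change of 0.50. Where at least 10 counts were required in every library, 15 members were tested and 4 of them called higher. TAP2 was at 50.2, 46.8 and 42.0 CPM in GFP and at 110, 96.8 and 85.6 CPM in ΔADAM libraries, an increase of about the same size in each experiment (1.06, SE 0.08, adjusted p = 2.41e-04, edgeR). TAP1 rose by 1.60 (SE 0.20, adjusted p = 0.00233, edgeR), from 7.36 to 13.5 CPM in the GFP libraries to between 28.1 and 57.1 CPM. NLRC5, the transactivator of class I genes, rose by 1.72, PSMB8, an immunoproteasome subunit, by 1.11 and CD274, the checkpoint ligand PD-L1, by 1.5. HLA-B and HLA-F were called at 1.98 and 1.94, whereas HLA-C (0.41) and B2M (0.50), the common light chain, were not. Reads of the HLA genes can be shared among them, so that the split between these genes is uncertain.

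Of 18 tested chemokines and inflammatory cytokines 12 were called higher and 0 lower, with a median log2 fold change of 1.27. CXCL9, CXCL10 and CXCL11 attract T cells through CXCR3, and CXCL1, CXCL3 and CXCL8 attract neutrophils through CXCR2. CXCL10 was at 1.32, 2.43 and 3.13 CPM in GFP and at 10.0, 32.9 and 7.23 CPM in ΔADAM libraries (2.60, SE 0.41, adjusted p = 0.00668, edgeR). CXCL8 was at 15, 13.4 and 12.3 against 85.9, 33.6 and 30.8 CPM (1.57, SE 0.25, adjusted p = 0.00648, edgeR). Neither gene's groups overlapped, and the highest ΔADAM library was that of experiment 2 for CXCL10 and that of experiment 1 for CXCL8. CXCL11 rose by 2.33. CXCL9 passed the test with 0, 0 and 0.101 CPM in GFP and 3.01, 4.24 and 1.11 CPM in ΔADAM libraries, and its fold change is not given because the GFP libraries hold almost no counts. The interleukin genes IL1B (1.60), IL1A (1.91), IL6 (1.77) and IL24 (0.97), the death ligand TNFSF10 (1.53) and CCL5 (1.49) rose as well. TNF was at 0 counts in the 6 libraries. CXCL9 passed the filter on low counts through the TYRO3 libraries alone, so that its call is no separate support for the count. Where at least 10 counts were required in every library, 8 members were tested and 6 of them called higher. The number called was 7 without the first GFP library and without the first or the third ΔADAM library.

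Of 15 tested NF-kB subunits and feedback targets 4 were called higher and 0 lower, with a median of 0.15. BIRC3, an apoptosis inhibitor, rose from 15.5, 12.6 and 13.8 CPM to 39.1, 34.5 and 25.7 CPM (1.19, SE 0.18, adjusted p = 0.00592, edgeR). The subunit genes NFKB2 (0.60) and RELB (0.64) of the non-canonical branch and TNFAIP2 (0.64) rose, whereas TNFAIP3, a feedback inhibitor, had -0.14 and ICAM1 0.12. The count was 2 without the first GFP library and without any 1 of the ΔADAM libraries.

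**Figure D3:**
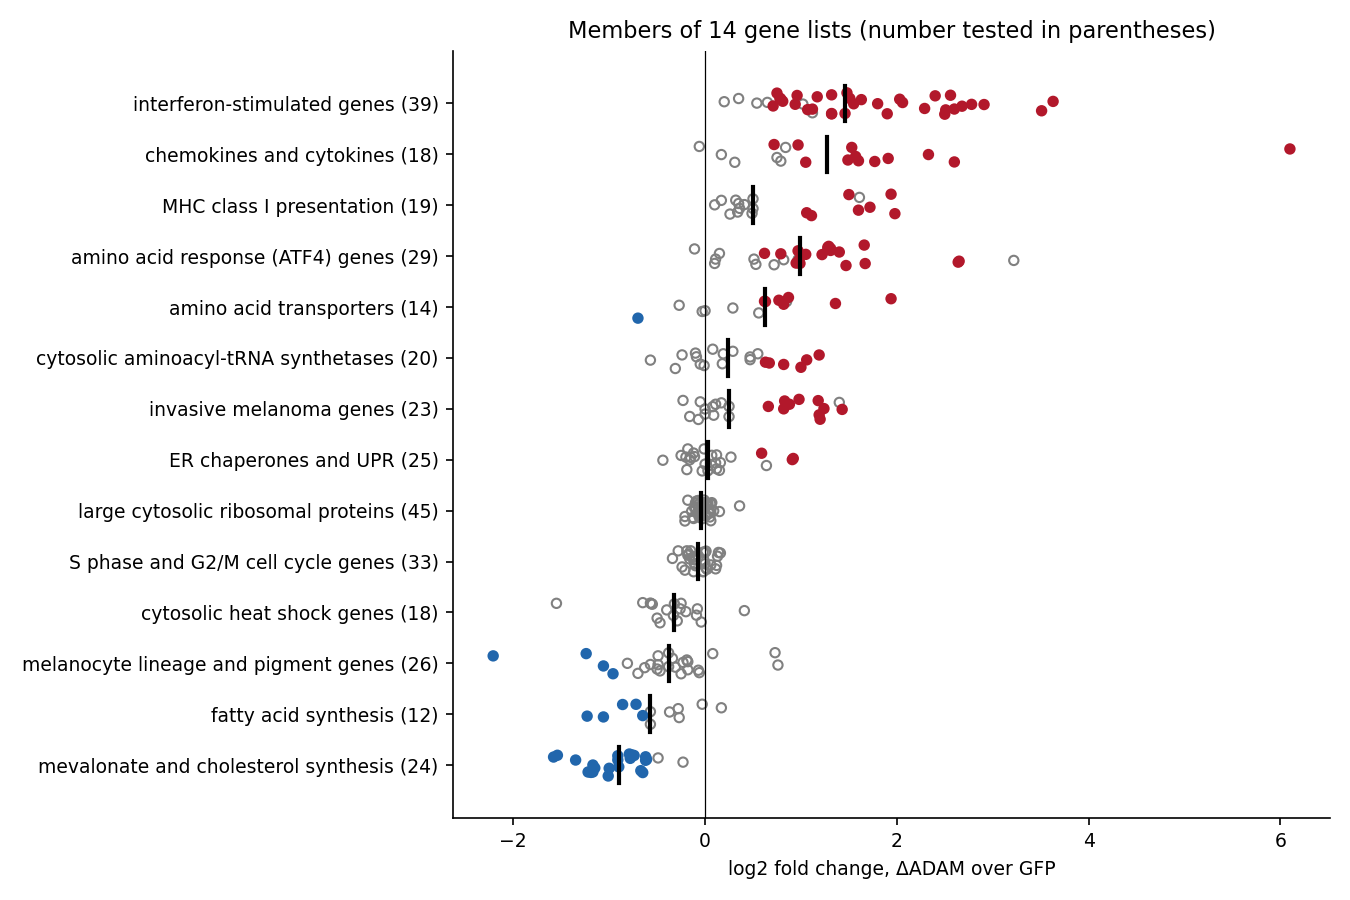
Log2 fold change of ΔADAM over GFP for each tested member of 14 gene lists, with called genes filled (red higher, blue lower), genes not called as open circles and the list median as a black bar. Called members lie on the right for the interferon-stimulated list (33 of 39) and on the left for the cholesterol list (22 of 24).

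Of 29 tested genes of the amino acid response 18 were called higher, 0 lower and 11 were not called. ATF4 is translated when amino acids are short or when other stress kinases act, and it turns on enzymes that make serine, glycine, asparagine and cysteine and the transporters that import amino acids. The median log2 fold change was 0.99, and the medians of the 3 experiments were 1.34, 0.56 and 1.31. PSAT1, of serine synthesis, was at 215, 203 and 357 CPM in GFP and at 573, 486 and 831 CPM in ΔADAM libraries, without overlap (1.29, SE 0.11, adjusted p = 2.61e-04, edgeR). ASNS, asparagine synthetase, was at 87.3, 93.2 and 192 against 379, 278 and 529 CPM (1.67, SE 0.17, adjusted p = 0.00115, edgeR). In both genes experiment 3 had the highest level in either group. CTH, of cysteine synthesis, rose by 1.66, MTHFD2, of mitochondrial folate metabolism, by 1.40, and PCK2, mitochondrial PEP carboxykinase, by 1.22. ATF4 itself rose by 0.98 (SE 0.21, adjusted p = 0.0199, edgeR), and its partners CEBPB and CEBPG rose by 1.05 and 1.28. DDIT3, the stress factor CHOP, had 0.72 and was not called (adjusted p = 0.117, edgeR), and neither were SESN2 (1.28), ALDH1L2 (3.22) and GDF15 (0.97). The count was 10 without the third ΔADAM library and 3 with a term for experiment 1 alone.

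Amino acid transporters had 7 members called higher and 1 lower of 14 tested, with a median of 0.63. SLC6A9, a glycine transporter, was at 6.31, 6.50 and 7.89 CPM in GFP and at 29.9, 20.2 and 36.6 CPM in ΔADAM libraries (1.94, SE 0.22, adjusted p = 0.00145, edgeR). SLC7A11, the cystine importer, was at 302, 259 and 282 against 1057, 431 and 846 CPM (1.36, SE 0.24, adjusted p = 0.00918, edgeR). SLC1A5 and SLC7A1 rose by 0.87 and 0.77, and SLC7A2, a cationic amino acid transporter, fell by 0.70 on the log2 scale. Without the third ΔADAM library 2 transporters were called higher, and 4 without the first or the third GFP or the first ΔADAM library. SLC7A2 was called in none of these fits.

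The cytosolic aminoacyl-tRNA synthetases, which charge tRNAs for translation, were called higher for 6 of 20 genes and lower for 0, with a median of 0.24. GARS, for glycine, was at 316, 324 and 508 CPM in GFP and at 858, 629 and 1170 CPM in ΔADAM libraries (1.19, SE 0.13, adjusted p = 0.00127, edgeR). CARS (1.06), WARS (1.00), SARS (0.82), EPRS (0.67) and YARS (0.63) rose as well. The others lay between -0.57 for VARS and 0.55 for MARS. Leaving out single libraries left 5 to 7 called higher, and VARS was called lower without the second GFP or the first or the second ΔADAM library.

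Chaperones and sensors of the endoplasmic reticulum had 3 of 25 members called higher and 0 lower, with a median of 0.03. These were XBP1 (0.92), the transcription factor spliced by IRE1, ERN1 (0.59), which encodes IRE1, and HERPUD1 (0.91), of protein degradation at the membrane. The chaperone genes HSPA5, HSP90B1, PDIA4 and DNAJB11 lay between -0.19 and 0.16. None of the 3 was called without the first or the third GFP or the first or the third ΔADAM library.

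The core of the amino acid response element, TGATGCAA, was found on either strand in the promoter window of 3 of the 24 ATF4-list genes in the table and of 3 of the 12 transporters, against 0.866% of all promoters. It is shown for a pair of called genes.
CHAC1, chr15:40953237-40953294, plus strand: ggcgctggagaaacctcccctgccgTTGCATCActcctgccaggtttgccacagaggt
CEBPG, chr19:33374046-33374103, plus strand: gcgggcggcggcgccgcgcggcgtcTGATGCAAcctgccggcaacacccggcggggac
The other promoters of these lists held no such letters in this window, which says nothing about ATF4.

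The pathway of cholesterol synthesis leads from acetyl-CoA through mevalonate and squalene to cholesterol, and SREBP2, encoded by SREBF2, drives its genes when sterols are low. Of 24 tested members 22 were called lower and 0 higher, with a median log2 fold change of -0.90, and in limma on log2 TPM 13 were called lower. HMGCS1, which makes HMG-CoA, was at 506, 647 and 538 CPM in GFP and at 104, 329 and 204 CPM in ΔADAM libraries (-1.58, SE 0.28, adjusted p = 0.00913, edgeR). MVD, which makes isopentenyl diphosphate, was at 98.4, 119 and 112 against 18.5, 70.0 and 37.5 CPM (-1.54, SE 0.29, adjusted p = 0.0114, edgeR). In both genes the GFP libraries lay above the ΔADAM libraries, and the ΔADAM library of experiment 1 was the lowest. Downstream, FDPS had -0.76, SQLE -0.91, LSS -1.35, DHCR7 -1.22 and SC5D -0.62. INSIG1, the sterol sensor that holds SREBP back, and SREBF2 fell by 1.15 and 0.61 on the log2 scale. PMVK, a kinase of the mevalonate steps, was not called (-0.23). The median log2 ratio was -1.52 in experiment 1, -0.46 in experiment 2 and -0.73 in experiment 3. The count was 1 without the first and 2 without the third ΔADAM library, 9 without the first GFP library and 10 with a term for experiment 1 alone, while the median of the list stayed between -1.09 and -0.54 in these fits and in those without another library.

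Fatty acid synthesis had 5 of 12 members called lower and 0 higher, with a median of -0.57. SCD, which introduces the double bond of oleate, was at 1692, 2252 and 2249 CPM in GFP and at 555, 1564 and 1153 CPM in ΔADAM libraries (-1.06, SE 0.26, adjusted p = 0.0291, edgeR). ACLY (-0.72) and ACSS2 (-1.23), which supply acetyl-CoA, FASN (-0.65) and SREBF1 (-0.86), the regulator of the pathway, fell. ME1 (-0.03) and MID1IP1 (0.17) were not called. The count was 2 in limma on log2 TPM and without the first GFP or the first ΔADAM library, and 1 without the third ΔADAM library. The sterol regulatory element TCACCCCAC was found in the promoter window of 1 of the 18 cholesterol genes in the table, SREBF2, against 0.43% of all promoters.

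**Figure D4:**
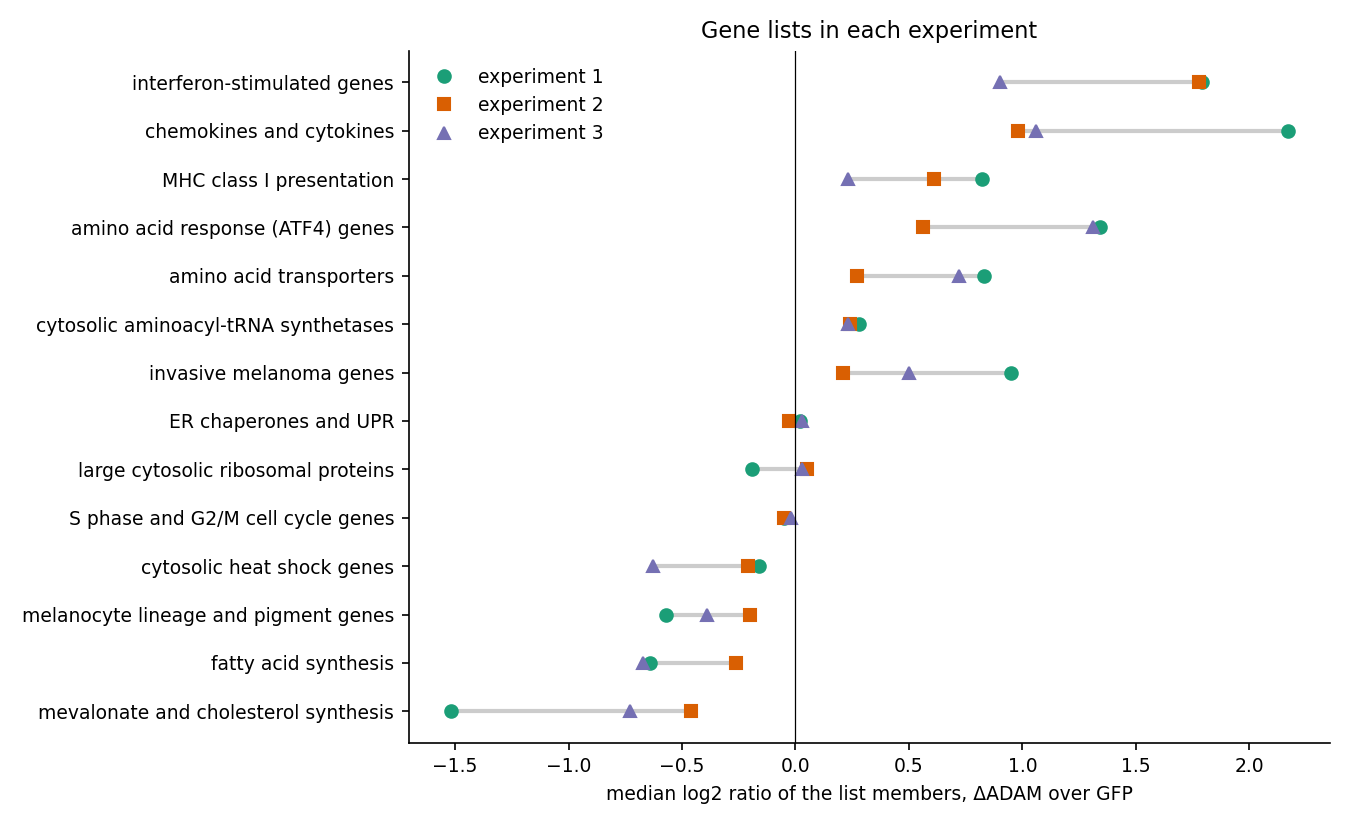
Median log2 ratio of ΔADAM over GFP over the tested members of each list, with 1 marker per experiment and a grey bar from the lowest to the highest. The 3 experiments lay on the same side of 0 for the interferon-stimulated list (1.79, 1.78 and 0.90) and the cholesterol list (-1.52, -0.46 and -0.73).

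In the melanocyte lineage, 4 of 26 tested genes were called lower and 0 higher, with a median of -0.38. MITF, the master regulator of melanocytes, was at 306, 305 and 337 CPM in GFP and at 105, 214 and 157 CPM in ΔADAM libraries, so that the groups did not overlap (-1.06, SE 0.22, adjusted p = 0.0177, edgeR). DCT, an enzyme of melanin synthesis, was at 335, 365 and 444 against 88.1, 241 and 203 CPM (-1.24, SE 0.30, adjusted p = 0.0286, edgeR). OCA2, a melanosome channel, and TRPM1, whose levels were below 2 CPM, fell by 0.96 and 2.21 on the log2 scale. The other lineage regulators had smaller values that were not called, SOX10 with -0.38 and PAX3 with -0.07, and the pigment genes PMEL (-0.31), MLANA (-0.63), TYR (-0.49) and TYRP1 (0.73) were not called either. In limma on log2 TPM, TYRP1 was called higher with either pseudocount, and of the 4 only TRPM1 was called lower, with a pseudocount of 1 but not of 0.1. None of the 4 was called without the first GFP library or without the first or the third ΔADAM library. The M-box TCATGTG, to which MITF can bind, was found in the promoter window of 8 of the 20 list genes in the table, against 2.92% of all promoters, and among the 4 called genes in that of DCT.
DCT, chr13:94479866-94479922, minus strand: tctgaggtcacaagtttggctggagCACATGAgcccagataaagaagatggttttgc

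Of 23 tested genes of the invasive state, 10 were called higher and 0 lower, with a median of 0.25. The matrix protein THBS1 was at 622, 260 and 318 CPM in GFP and at 1591, 510 and 763 CPM in ΔADAM libraries, higher in each experiment although the groups overlapped (1.20, SE 0.13, adjusted p = 0.00127, edgeR). The YAP target genes CTGF, CYR61 and ANKRD1 rose by 1.19, 0.88 and 1.43, also with overlapping groups. NGFR, a marker of neural crest-like melanoma cells, rose by 1.24 and SOX9 by 1.18, and AXL and EGFR belong to the 10 as well. FN1 (0.08), VIM (0.11), CDH2 (0.00), TNC (0.00) and SPARC (-0.07), which make matrix and mesenchymal proteins, were not called. The count was 6 without the first GFP or the first ΔADAM library and 5 without the third ΔADAM library.

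Receptor tyrosine kinases and growth factors had 5 genes called higher and 2 lower of 28 tested. The collagen receptor DDR2 was at 147, 150 and 168 CPM in GFP and at 317, 237 and 434 CPM in ΔADAM libraries (1.04, SE 0.18, adjusted p = 0.00881, edgeR). AREG, a ligand of the EGF receptor, rose by 1.29, EGFR by 0.98, NRG1 by 0.71 and PDGFA by 1.46. IGFBP5, which binds insulin-like growth factors, fell from 936, 944 and 677 CPM to 245, 595 and 229 CPM (-1.42, SE 0.27, adjusted p = 0.0134, edgeR), and ROR1 fell by 0.83 on the log2 scale. The counts were 2 higher and 0 lower without the first GFP or the first ΔADAM library, 1 higher and 0 lower without the third ΔADAM library, and 1 lower without the third GFP or the second ΔADAM library.

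Outputs of the ERK pathway had 3 of 24 genes called higher (12.5%, against 5.19% of all genes called) and 0 lower, with a median of 0.02. CCND1, cyclin D1, was at 534, 476 and 444 CPM in GFP and at 1081, 696 and 917 CPM in ΔADAM libraries (0.87, SE 0.12, adjusted p = 0.00348, edgeR). FOSL1 rose by 1.08 and DUSP5 by 0.68. The feedback genes SPRY2 (0.25), SPRY4 (-0.11), DUSP4 (0.06) and DUSP6 (0.42) and MYC (0.01) were not called. Of 14 tested STAT3 and SOCS genes, SOCS1 (1.60), SOCS3 (0.67) and PIM1 (0.67) rose and 0 fell, and STAT3 had a log2 fold change of -0.19. In the ERK list 1 gene was called without the first or the third GFP or the first or the third ΔADAM library, and in the STAT3 list 1 was called higher without the second GFP library and 0 without the first or the third GFP or the first or the third ΔADAM library. Without the first GFP library IL6R was called lower.

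NRF2 and glutathione genes had 3 of 21 members called higher and 0 lower, the antioxidant genes TXNRD1 (1.04), GCLM (0.79) and SRXN1 (1.39), and 1 without the third ΔADAM library. Of 26 hypoxia-responsive and glycolysis genes, VEGFA, the vascular growth factor, rose from 35, 44.4 and 38.9 CPM to 98.6, 74.9 and 154 CPM (1.37, SE 0.27, adjusted p = 0.0151, edgeR) and NDRG1 rose by 0.66. PFKFB4 and ALDOC, of glycolysis, fell by 0.64 and 0.88 on the log2 scale, and SLC2A1 (0.17), PGK1 (-0.26) and LDHA (-0.46) were not called. None of the 4 was called without the first GFP or the third ΔADAM library, VEGFA and NDRG1 were not called without the third GFP library either, and NDRG1 was not called without the first ΔADAM library. Among 22 collagens and integrins COL6A3 (1.44) and ITGA2 (0.83) rose and ITGB8 (-0.70) fell (13.6% called, against 5.19% of all genes tested). None of them was called without the first or the third ΔADAM library. ITGA2 and ITGB8 were also lost without the first GFP library, and ITGB8 without the third. Among 22 p53 targets CCNG1 (-0.77) and TP53INP1 (-0.61) fell, and none rose (9.1% called, against 5.19% of all genes tested). Without the first GFP or the first ΔADAM library neither was called, and without any other library 1 of them was. Without the second GFP library 2 p53 targets were called higher, GADD45B and CDKN1A, which had 0.78 and 0.83 with all libraries. Among 28 lysosome and autophagy genes 1 was called (3.6%, against 5.19% of all genes tested), NEU1, a sialidase with -0.67, and it was not called in limma on log2 TPM or without the first GFP or the first or the third ΔADAM library.

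Several large gene groups showed no calls in edgeR, DESeq2 or limma on log2 TPM. Over all 15098 genes tested, 4136 had an unadjusted p under 0.05 in edgeR, beside which the counts below should be read. None of the 33 tested S phase and G2/M genes was called and 4 had an unadjusted p under 0.05, with a median of -0.07 and a range from -0.34 for TYMS, the thymidylate synthase, to 0.16. None of the 45 large ribosomal protein genes was called (median -0.04, range -0.21 to 0.36, 1 at an unadjusted p under 0.05), and none of the 22 SR and hnRNP splicing factors (median -0.05, range -0.40 to 0.16, 9 at an unadjusted p under 0.05). None of the 18 cytosolic heat shock genes was called, but their median was -0.32 and 12 had an unadjusted p under 0.05. HSP90AA1 was at 4874, 4872 and 6177 CPM in GFP and at 3470, 3798 and 3572 CPM in ΔADAM libraries, without overlap (-0.55, SE 0.11, adjusted p = 0.0141, edgeR), under the fold change required for a call. Without the second GFP library 4 heat shock genes were called lower, and without the second ΔADAM library 2.

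In bulk RNA, fewer cells of a type and less RNA per cell cannot be told apart, and markers of other cell types were therefore examined. The summed level of 8 keratinocyte markers was 90.5 to 112 TPM in GFP and 89.1 to 105 TPM in ΔADAM libraries, with KRT5, KRT1 and IVL at 0 in all of them. Only 2 of the 8, KRT10 and TP63, passed the filter on low counts. KRT14, DSG3 and DSC3 had 6, 13 and 7 counts in the GFP libraries together, so that the sum says little about the set as a whole. That of 8 fibroblast markers was 75.1 to 97.0 against 55.7 to 71.2 TPM, with LUM, a matrix proteoglycan, called lower (-0.65, SE 0.13, adjusted p = 0.0158, edgeR) and the other 6 tested members, from DCN at -1.42 to THY1 at 0.84, not called. Leukocyte markers had 42.2 to 45.3 against 38.6 to 53.8 TPM, with CD3E at 0. Of these 8 markers 2, LYZ and CD68, passed the filter, and PTPRC, which did not, had 21 counts in the GFP libraries together. LUM was not called without the first GFP or the first or the third ΔADAM library. Endothelial markers had 3.29 to 6.59 against 5.54 to 9.27 TPM, with KDR, a VEGF receptor, called higher (0.75, SE 0.15, adjusted p = 0.0141, edgeR). KDR was not called in limma on log2 TPM or without the first or the second GFP or the third ΔADAM library. It was also not called without the term for the experiment, with a term for experiment 1 alone, or in experiments 2 and 3 alone. The other tested members, PECAM1 (0.01) and VWF (-0.30), were not called. The part of other cells in the results above was not tested beyond these levels.

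ΔADAM TYRO3 was then compared directly with the other TYRO3 groups. This asks whether resistance to the first cleavage gives another transcriptome than WT TYRO3 or resistance to the second cleavage. The study calls ΔADAM TYRO3 more resistant than WT, and the cleavage that remained was not measured in these libraries. In edgeR, 0 of 15098 genes (0%) were called against WT TYRO3, with a smallest adjusted p of 0.188 and 158 genes at an unadjusted p under 0.05. Against ΔGS TYRO3, 0 genes (0%) were called, with a smallest adjusted p of 1.000 and 216 genes at an unadjusted p under 0.05. DESeq2 called 3 genes against WT and 1 against ΔGS TYRO3. In edgeR both counts at an unadjusted p under 0.05 are smaller than a calibrated test would give if no gene differed. The edgeR test was therefore strict here, for a reason that was not tested, and 0 calls do not show that the groups are alike. The 95% interval of the log2 difference had a median width of 0.55 in both comparisons, so that small differences would not have been detected. The level of TYRO3 was 1893 ± 1204 CPM with ΔADAM, 2075 ± 882 with WT and 2260 ± 1247 with ΔGS TYRO3 (SD, n = 3).

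For the genes given next, the 95% interval of the difference between ΔADAM and the other TYRO3 groups included 0. OAS2 had 30, 89.9 and 12.7 CPM with WT and 36.8, 83.2 and 13.2 CPM with ΔGS TYRO3, and the log2 difference of ΔADAM was 0.19 over WT (95% interval -0.24 to 0.62) and 0.11 over ΔGS (-0.31 to 0.54). For TAP2 the differences were 0.06 (-0.12 to 0.24) and 0.03 (-0.14 to 0.21). For ASNS they were 0.12 (-0.24 to 0.49) and -0.00 (-0.37 to 0.36). The intervals of these 3 genes leave out a difference of 2-fold in either direction. HMGCS1 differed by 0.05 (-0.55 to 0.64) from WT and by 0.11 (-0.48 to 0.70) from ΔGS TYRO3, and AXL by 0.01 (-0.32 to 0.34) and 0.04 (-0.29 to 0.37). MITF differed by -0.25 (-0.73 to 0.23) and -0.06 (-0.53 to 0.42). CHAC1 and STC2 had the widest intervals among the genes given here, from -0.44 to 1.60 and from -0.30 to 1.30 against WT TYRO3. The median difference of the 27 pathway lists lay between -0.09 and 0.14 against WT and between -0.12 and 0.06 against ΔGS TYRO3.

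**Figure D5:**
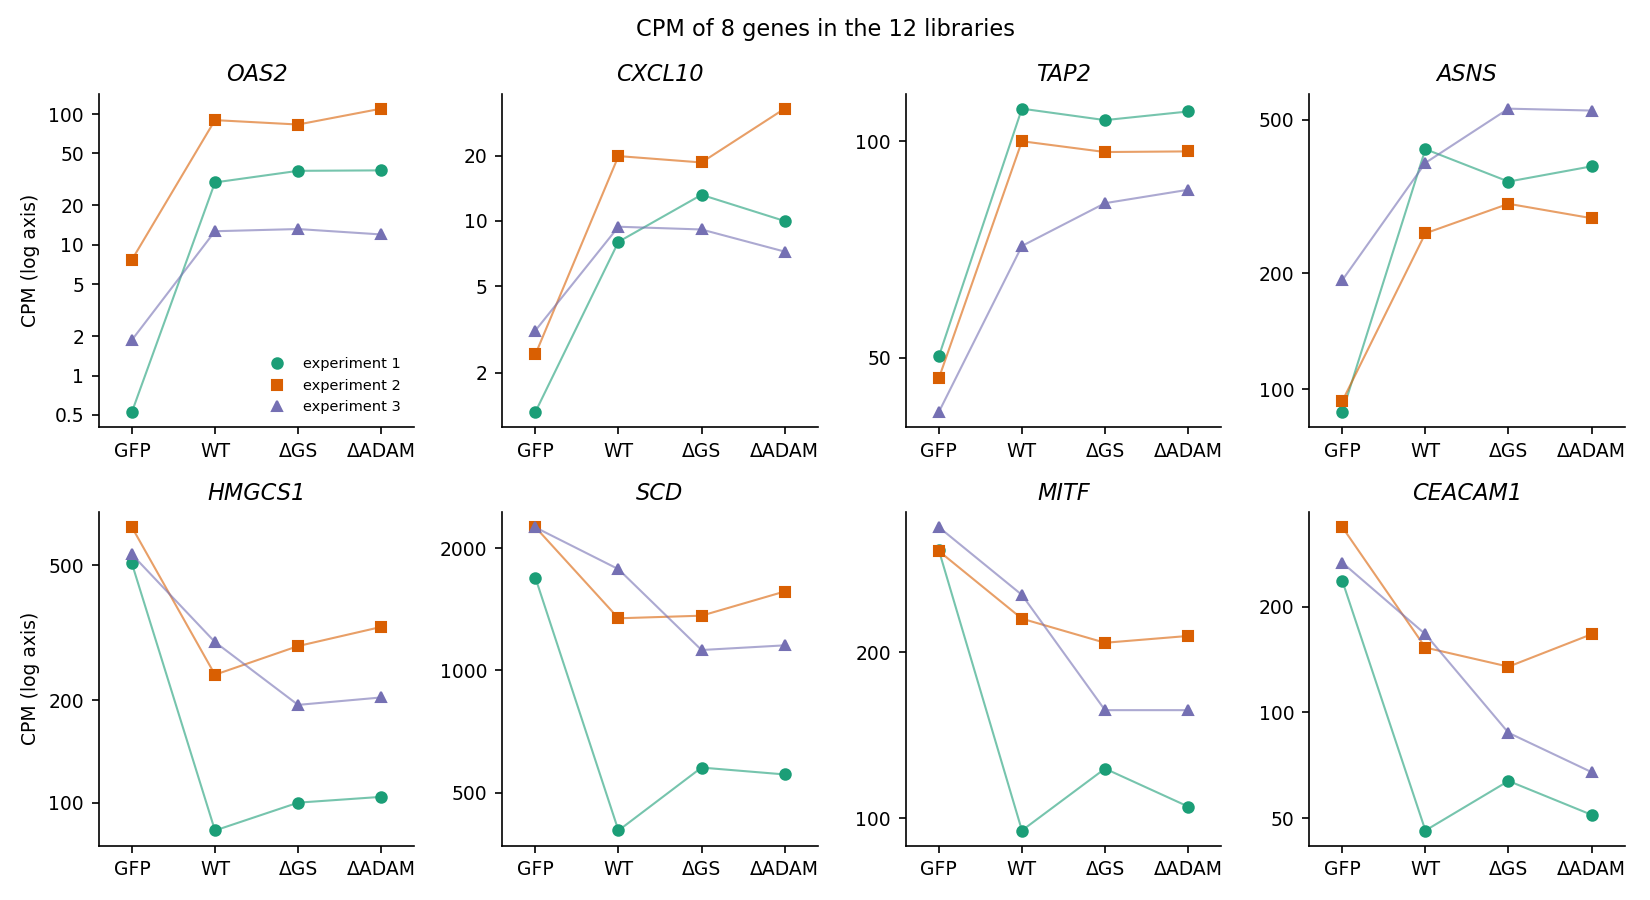
CPM of 8 genes in the 12 libraries on log axes, with lines joining the 4 libraries of 1 experiment. In each experiment the 3 TYRO3 libraries lie on the same side of the GFP library, as for OAS2, at 0.526 CPM with GFP and 30, 36.8 and 37.1 CPM with WT, ΔGS and ΔADAM TYRO3 in experiment 1.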

How the data were processed

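Total RNA of WM-266-4 cells was sequenced as stranded mRNA libraries, and the 6 libraries compared are those of ΔADAM TYRO3 and GFP. The authors trimmed the reads and estimated transcript abundances with kallisto 0.46.0 against Ensembl 96 (GRCh38), and deposited estimated counts and TPM values per transcript for each library. The study's batch correction and library size normalization come after these files.

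Transcripts were joined to GENCODE 29 by identifier without version (169797 of 188753 matched, with at least 97.4% of the counts of each library), and estimated counts were summed per gene and rounded. All 12 libraries were fitted in edgeR 4.0.16 (R 4.3.3) with TMM scaling, filterByExpr (minimum count 10, minimum total 15), the 4 groups and a term for each experiment, and tested by quasi-likelihood. SE is the log2 fold change divided by the square root of the F statistic. Ratios within experiments are differences of log2 CPM with a prior count of 2. The pairing comes from the experiment numbers in the labels. Deviations from the group means correlated by 0.04 to 0.53 between libraries of 1 experiment and by -0.37 to 0.05 between others, and by 0.04, 0.18 and 0.17 for the 3 GFP and ΔADAM pairs. Within an experiment, pairs that held a GFP library reached at most 0.26. Deviations sum to 0 within each group, so that positive values within experiments bring negative ones between them, and this contrast is partly fixed in advance. Counting error falls with depth, and limits from 0 counts cover counting error only.

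The libraries and gene lists were chosen with earlier results of these data known, and no list was tested as a set. The genes named were TYRO3, all TAM and cleavage machinery members, up to 10 protein-coding called genes each way with the largest change, the same direction in the 3 experiments and a mean of at least 5 CPM, and up to 5 called members of each other list by adjusted p, or 2 where none was called. Other members are named as further examples, chosen after their values were seen, and some genes are not reported here. Alternatives were other scaling (DESeq2's type, upper quartile), DESeq2 1.42.0, limma 3.58.1 on log2 TPM (pseudocount 1 or 0.1), other filters, no term or 1 term for the experiments, fewer libraries, no fold threshold and each library left out. The procedure was run on simulated counts in which all groups of an experiment shared the same shift, as in the fit. Such counts cannot show whether the pairing by experiment holds in these data. Tables and figures used Python 3.11.15, pandas 2.3.3, numpy 2.4.6, scipy 1.17.1 and matplotlib 3.10.9.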

Additional observations from a re-analysis of the deposited data

How the results depend on the processing

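The direction of the 130 named genes was kept in each alternative. For the 129 other than TYRO3, 1706 of 2168 values stayed on the same side of the threshold, 460 lost the call and 2 gained it. Of the 101 called ones, 99 stayed called in DESeq2, 93 with the 6 libraries alone, 50 in experiments 2 and 3 alone, 33 with a term for experiment 1 and 0 without the replicate block. Leaving out the replicate block gave 5 genes higher and 0 lower (TYRO3, ASS1, CCPG1, H1F0 and FAM197Y8), and a term for experiment 1 in its place gave 96 and 75. Experiments 2 and 3 alone gave 170 and 48, no fold threshold 734 and 803. Genes called lower numbered 121 and 120 in limma on log2 TPM (pseudocounts 1 and 0.1). With 1 library left out, 164 to 502 genes were called higher and 34 to 356 lower. The counts were 215 and 73 without the first GFP library, 303 and 222 without the third, 230 and 55 without the first ΔADAM library and 164 and 34 without the third. DESeq2 called 3 genes against WT (XIRP1, AD000671.1 and AC025283.2) and 1 against ΔGS TYRO3 (AC107075.1), and edgeR called 0 to 1 against ΔGS TYRO3 with 1 library left out, the 1 without the third ΔGS library. The cause was not tested. With 4008293 counts in the first GFP library, 1 count there is worth about 0.263 CPM, so that low levels in it are coarse.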

Other observations

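Gene families that no list held were looked at after the values were seen, and their counts are descriptions. Over all genes tested 5.19% were called. The guanylate-binding proteins, interferon-inducible GTPases that attack intracellular pathogens, had 4 of 5 tested genes called higher in ΔADAM against GFP, among them GBP1 at 21.8, 22.6 and 18.7 CPM in GFP and 33.7, 65.0 and 28.7 CPM in ΔADAM libraries (log2 fold change 0.97, SE 0.17, adjusted p = 0.00885, edgeR). Of the apolipoproteins L 3 of 5 were higher, with APOL6 at 18.4, 28.0 and 13.2 against 62.7, 92.6 and 43.6 CPM (1.71, SE 0.10, adjusted p = 1.45e-05, edgeR). IRF1, a transcription factor induced by interferon gamma, rose by 1.67, and IRF4, which acts in the pigment lineage, fell by 1.02 on the log2 scale. The plasminogen activator system, which starts pericellular proteolysis, had 5 of 6 genes higher, among them PLAU (1.02), its receptor PLAUR (0.98) and SERPINB2 (1.75). MMP1, an interstitial collagenase, rose by 1.15 from 644, 743 and 375 CPM to 2052, 1096 and 905 CPM, with 3 of 16 matrix metalloproteinases higher and 1, MMP16, lower. The laminin chains LAMB3 and LAMA3 were the called members of 11.

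Myelin and glial genes had 5 of 10 tested members lower and 0 higher. MBP, a structural protein of myelin, was at 71.3, 83.9 and 66.5 CPM in GFP and at 23.8, 57.7 and 34.4 CPM in ΔADAM libraries (-0.99, SE 0.19, adjusted p = 0.0135, edgeR). OLIG1 (-1.25), FABP7 (-1.14) and GPM6B (-0.94) were lower as well. SOX4 and SOX6 fell by 0.97 and 0.67 on the log2 scale beside SOX5, whereas SOX9 rose. ASS1, argininosuccinate synthase, was at 2.10, 2.94 and 4.55 CPM in GFP and at 15, 13.7 and 15.4 CPM in ΔADAM libraries, and was among the 5 genes called without the replicate block (2.06, SE 0.23, adjusted p = 0.00170 with the block, edgeR). KLHDC7B was at 0 in the 3 GFP libraries and at 3.48, 1.10 and 2.37 CPM in the ΔADAM libraries. AKR1C1 and AKR1C2, steroid-reducing enzymes, were both higher, but reads of these near-identical genes can be shared and the split between them is uncertain.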
